A study of Mus musculus with 6 samples.

Results

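The edges of wide DNA methylation canyons were examined in endothelial cells, the cells that line blood vessels, sorted from mouse lung. Whole-genome bisulfite sequencing, in which unmethylated cytosines are converted and read as thymines, gave a methylation level, printed here in percent, for each of 1954255 tiles of 1 kb on chromosomes 1 to 19 (mm10). The comparison was between 3 samples from Dnmt3a knockout mice, called KO, and 3 samples from wild-type mice, called WT. The promoter that drove the deletion, the strain, age and sex of the mice, and whether each sample is a different animal were not stated in the labels used here. Errors (SD, n = 3 per group) and p-values therefore describe only how these samples spread, possibly for technical reasons. A canyon was a run of 5 or more adjacent tiles with a mean level under 10% over the 3 WT samples. Its edge tiles were those at 10% or more in that mean whose start lay 1 to 5 kb outside the outer tile of the run. This gave 430 canyons of 5 to 25 tiles (median 6) and 3319 edge tiles. Of 4300 positions 1 to 5 kb outside the canyons, 240 had no tile in the table, 656 were under 10% in WT and 85 were counted once because they lay beside a pair of canyons. The WT levels chose both canyons and edges, so WT levels and their rise away from a canyon are a description. All 430 canyons had at least 1 edge tile.

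No read counts come with the levels: depth is unknown, and intervals for counting error are not printed. Across tiles, residuals from the group means had a correlation of r = 0.531 to 0.553 between tiles 1 kb apart and r = 0.0895 to 0.105 at 2 kb (tiles are not independent replicates), so neighbouring tiles of 1 edge share error. Marker genes were each read at the gene end with the lower level, a choice that favours low values. These ends had a median level of 19.4% in WT (range 2.43 to 26.5) and 9.83% in KO for the 10 endothelial genes checked. For 8 leukocyte genes the median was 62.5% in WT (39.9 to 72.9) and 57.7% in KO. Medians for 4 erythroid, 7 epithelial and 7 mesenchymal genes were 53.5, 36.8 and 17.8% in WT and 48.7, 16.8 and 5.35% in KO. The part that other cells had in the results below was not tested.

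Dnmt3a encodes a de novo DNA methyltransferase, which adds methyl groups to cytosines that carry none. Most of a mammalian genome is methylated. Short unmethylated valleys mark most promoters rich in CpG, the cytosine-guanine pairs at which methylation sits. Canyons are much longer and typically lie over genes for transcription factors and signalling proteins of development, many of them held silent by Polycomb proteins in cells that do not use them. TET enzymes oxidise and so remove methylation at the borders of such regions, and in blood stem cells Dnmt3a is known to act at these borders.

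Promoter sequences show what lies inside and beside canyons. Each sequence is the 250 bases before a gene's start, 5′ to 3′ on the gene's strand, from RefSeq (GRCm38.p6, the assembly that mm10 names), with each CpG in capitals. The first 4 belong to canyon genes and start inside the canyon. The left edges of the canyons over Meis1 and Hlx lost methylation in KO, while the right edges of those over Six2 and Sox14 did not have a single tile called.
Meis1 (chr11:19018970-19019219, strand -): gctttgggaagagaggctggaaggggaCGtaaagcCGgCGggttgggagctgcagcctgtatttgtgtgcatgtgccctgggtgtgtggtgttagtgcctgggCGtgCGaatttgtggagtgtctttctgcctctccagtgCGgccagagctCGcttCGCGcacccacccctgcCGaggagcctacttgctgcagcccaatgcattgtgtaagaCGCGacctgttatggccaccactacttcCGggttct
Hlx (chr1:184732494-184732743, strand -): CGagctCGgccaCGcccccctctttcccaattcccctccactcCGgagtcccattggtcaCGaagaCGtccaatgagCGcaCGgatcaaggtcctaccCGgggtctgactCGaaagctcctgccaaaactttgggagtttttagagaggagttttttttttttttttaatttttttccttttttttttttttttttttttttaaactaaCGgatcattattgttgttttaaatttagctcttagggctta
Six2 (chr17:85688255-85688504, strand -): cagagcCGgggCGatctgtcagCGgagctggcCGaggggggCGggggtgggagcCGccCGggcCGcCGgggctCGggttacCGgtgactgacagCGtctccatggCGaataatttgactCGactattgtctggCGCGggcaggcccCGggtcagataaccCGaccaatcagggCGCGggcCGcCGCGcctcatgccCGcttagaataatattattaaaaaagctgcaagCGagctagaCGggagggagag
Sox14 (chr9:99876171-99876420, strand -): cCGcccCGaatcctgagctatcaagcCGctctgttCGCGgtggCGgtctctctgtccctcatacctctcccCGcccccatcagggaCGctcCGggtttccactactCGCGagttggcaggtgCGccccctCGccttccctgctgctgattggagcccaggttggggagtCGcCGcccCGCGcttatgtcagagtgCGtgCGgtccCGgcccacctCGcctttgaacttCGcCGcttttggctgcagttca
These windows hold 13, 11, 26 and 23 CpGs, in that order. They are examples that run against the medians of edges grouped by loss (defined below). The most CpG-rich promoter in the canyon had a median of 18 CpGs at eroded and 15.5 at held edges. The other 6 belong to genes whose start lies in an edge tile, so that the level of the edge tile is the level around the start. They were chosen after their values were seen, 4 from tiles called lower in KO (Zbtb7b, Cyp26b1, Zeb2, Hes7) and 2 from tiles with no call (Pax5, Per1).
Zbtb7b (chr3:89387672-89387921, strand -): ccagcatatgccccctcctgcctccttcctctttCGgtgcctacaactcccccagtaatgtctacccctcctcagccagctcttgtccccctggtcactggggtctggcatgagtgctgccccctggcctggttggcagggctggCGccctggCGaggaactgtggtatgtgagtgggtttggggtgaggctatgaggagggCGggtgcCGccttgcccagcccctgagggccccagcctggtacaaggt
Cyp26b1 (chr6:84593811-84594060, strand -): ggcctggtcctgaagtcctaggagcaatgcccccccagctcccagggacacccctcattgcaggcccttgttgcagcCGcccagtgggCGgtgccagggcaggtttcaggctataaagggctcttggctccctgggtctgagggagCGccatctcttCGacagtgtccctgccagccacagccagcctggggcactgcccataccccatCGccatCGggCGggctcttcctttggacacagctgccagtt
Zeb2 (chr2:45113280-45113529, strand -): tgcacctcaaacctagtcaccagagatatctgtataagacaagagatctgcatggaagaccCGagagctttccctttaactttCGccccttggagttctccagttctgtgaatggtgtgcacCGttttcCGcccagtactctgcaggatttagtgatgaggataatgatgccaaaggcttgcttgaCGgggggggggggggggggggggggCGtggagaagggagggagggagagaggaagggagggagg
Hes7 (chr11:69120203-69120452, strand +): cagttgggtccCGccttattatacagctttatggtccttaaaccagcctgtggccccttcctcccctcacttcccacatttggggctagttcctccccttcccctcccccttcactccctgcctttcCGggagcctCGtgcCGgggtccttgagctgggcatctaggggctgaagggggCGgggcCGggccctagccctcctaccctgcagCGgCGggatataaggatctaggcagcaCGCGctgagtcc
Pax5 (chr4:44710695-44710944, strand -): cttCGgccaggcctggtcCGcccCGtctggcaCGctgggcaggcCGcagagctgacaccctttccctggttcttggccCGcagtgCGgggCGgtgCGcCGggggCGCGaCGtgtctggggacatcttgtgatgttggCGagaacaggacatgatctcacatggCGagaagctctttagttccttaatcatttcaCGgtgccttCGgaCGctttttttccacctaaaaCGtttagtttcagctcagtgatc
Per1 (chr11:69099902-69100151, strand +): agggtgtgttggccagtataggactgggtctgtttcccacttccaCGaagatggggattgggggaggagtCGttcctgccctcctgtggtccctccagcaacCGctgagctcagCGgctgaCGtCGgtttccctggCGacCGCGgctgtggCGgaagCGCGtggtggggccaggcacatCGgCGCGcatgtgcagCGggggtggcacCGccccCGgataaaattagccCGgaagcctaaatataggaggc
They hold 5, 7, 6, 10, 19 and 19 CpGs. These picks do not stand for their classes. Over all promoters that start in an edge tile, the median was 6 CpGs in tiles called lower (10 promoters). It was also 6 in tiles not called (9 promoters).

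Edge tiles had less methylation in KO. The mean level over the 3319 edge tiles was 39.5, 38.9 and 39.8% in the KO samples and 52.2, 51.5 and 51.1% in the WT samples. The groups did not overlap, and the difference was -12.2 points (39.4% ± 0.477 and 51.6% ± 0.565), against -5.36 points over all tiles. Inside the canyons, where there was little to lose, levels were 2.27% ± 0.166 in KO and 3.26% ± 0.144 in WT. Calls required 10 points or more and an adjusted p below 0.05 (limma, Benjamini-Hochberg over all tiles). By this rule 1392 edge tiles (41.9%) were called lower in KO, where 16.2% of all tiles were, and 6 (0.181%) were called higher, where 0.0796% of all tiles were. The highest KO sample was under the lowest WT sample in 55.7% of edge tiles (31.6% of all tiles), and the lowest KO sample above the highest WT sample in 0.693% (1.54% of all tiles). At 20 points or more, 616 edge tiles were called lower and 0 higher (4.5 and 0.00102% of all tiles). Losses of 50 points or more were found in 96 edge tiles, and 564 edge tiles (16.99%) were under 10% in KO.

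Because WT levels chose the edges, the difference was tested in samples that had no part in the choice: canyons and edges were found again from 1 WT sample alone, and KO was compared with the other 2 WT samples. This gave 420, 433 and 461 canyons for WT replicates 1 to 3 and differences of -11.6, -12.3 and -12.7 points. No KO sample reached the level of a WT sample in any of the 3. The two-sided exact permutation p was 0.2 each time (n = 3 and 2), the smallest that this design allows, and 0.218 after Benjamini-Hochberg adjustment over the 12 such tests of levels made. In these samples 36.8, 39.8 and 40.4% of edge tiles were called lower by limma, where 12.5, 13.9 and 13.5% of all tiles were, and 6, 8 and 3 edge tiles were called higher, where 0.0836, 0.071 and 0.0712% of all tiles were. The edge tiles had a level of 52.5, 51.5 and 52.03% in the WT sample that chose them and 51.5, 51.6 and 52.5% in the other WT samples.

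Methylation rose steeply away from the canyons in both groups, and KO lay below WT at every distance. At 1 kb the level was 19.4% ± 0.3205 in KO and 31.4% ± 0.801 in WT over 785 tiles, or -12.03 points for KO minus WT. The difference was -14.4 points at 2 kb, -12.02 at 3 kb, -11.3 at 4 kb and -11.1 at 5 kb. Points of difference were thus similar along the edge, but levels were not: KO kept 61.7% of the WT level at 1 kb, 73.05% at 2 kb and 81.7% at 5 kb. The share of tiles called lower was highest at 2 kb, at 49.2%, and was 43.3% at 1 kb and 36.5% at 5 kb. In the held-out samples the difference at 1 kb minus that at 5 kb was -0.341, -0.999 and -1.19 points (exact permutation p = 0.4, 0.2 and 0.2, n = 3 and 2), and with canyons cut at 5% in place of 10% it was 2.42, so no order between the 2 distances was shown.

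Edges differed by the length of their canyon. Edges of canyons of 5 to 9 tiles were at 39.8, 39.2 and 40.2% in KO and 53.5, 52.7 and 52.5% in WT. Edges of canyons of 10 or more tiles were at 37.4, 36.7 and 37.5% in KO and 43.6, 42.7 and 41.9% in WT. The groups did not overlap in either class, but the gap between them was -13.2 points beside the 370 shorter canyons and -5.55 points beside the 60 longer ones. KO kept 75.1% of the WT level in the first class and 87.02% in the second. Of the edge tiles, 45.3% (1314 of 2898) and 18.5% (78 of 421) were called lower. The share beside long canyons was close to the 16.2% of all tiles. By finer classes, the difference was -13.2 points for canyons of 5 tiles, -13.4 for 6 to 7, -12.3 for 8 to 9, -5.11 for 10 to 14 and -6.32 for 15 or more. In held-out samples, the loss beside long canyons was smaller than that beside shorter ones by 5.98, 7.06 and 6.52 points (exact permutation p = 0.2 each time, the smallest possible, n = 3 and 2). KO and WT samples did not overlap in this contrast for any of the 3 choices.

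**Figure D1:**
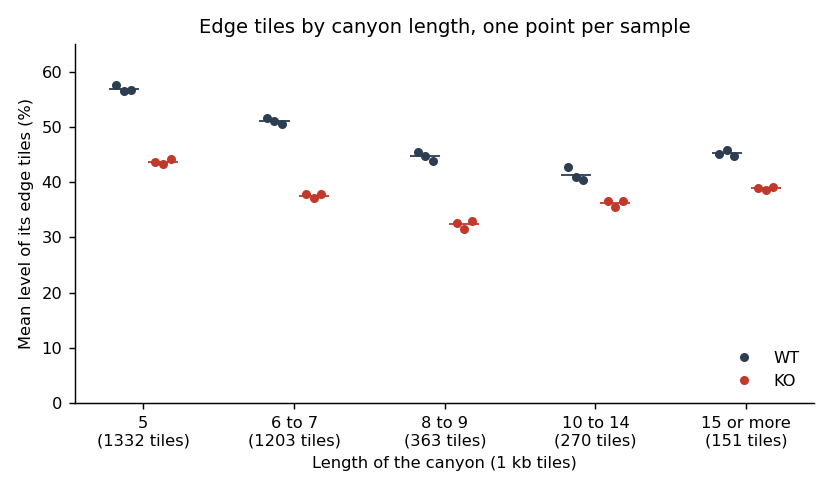
Mean methylation level (%) of the edge tiles of canyons in 5 length classes (1 kb tiles), one point per sample with the group mean as a bar, WT dark and KO red (3 samples each). The KO and WT points lie about as far apart in the first 3 classes, with differences of -13.4 to -12.3 points, and closer together at 10 to 14 (-5.11) and 15 or more tiles (-6.32).

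The contrast between shorter and longer canyons was present at each distance. It was -13.1 against -5.43 points at 1 kb, -15.7 against -5.86 at 2 kb and -11.97 against -5.296 at 5 kb. It continued past the edges: from 6 to 20 kb outside, tiles of 10% or more in WT differed by -9.51 points beside shorter and by -5.11 beside longer canyons. Of these tiles 32.3 and 14.4% were called lower. The value beside longer canyons was close to that of all tiles (-5.36 points, 16.2% called lower). Flanks of narrow valleys (runs of 1 to 4 tiles under 10% in WT) were not taken out of these tiles. Edge tiles of long canyons had lower levels in WT, and tiles are therefore also given by WT level. Among tiles at 50 to 70% in WT the difference was -14.8 points beside shorter canyons (759 tiles) and -4.93 beside longer ones (119 tiles). Among tiles at 70% or more it was -15.5 and -6.82, at 30 to 50% -14.4 and -7.42, at 20 to 30% -10.1 and -6.29, and at 10 to 20% -6.04 and -3.42. Tiles that were neither canyon edges nor flanks of narrow valleys differed by -4.78 points at 10 to 20%, -6.81 at 20 to 30%, -5.52 at 30 to 50%, -3.72 at 50 to 70% and -5.93 at 70% or more. The same WT means chose and sorted these tiles. With edges and level classes taken from 1 WT sample alone (added after these values were seen), KO minus the other WT samples at 50 to 70% was -13.7, -14.4 and -14.7 points beside shorter canyons and -6.46, -5.65 and -7.18 beside longer ones, and at 10 to 20% it was -5.37, -5.76 and -6.97 and -3.999, -4.27 and -3.87.

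**Figure D2:**
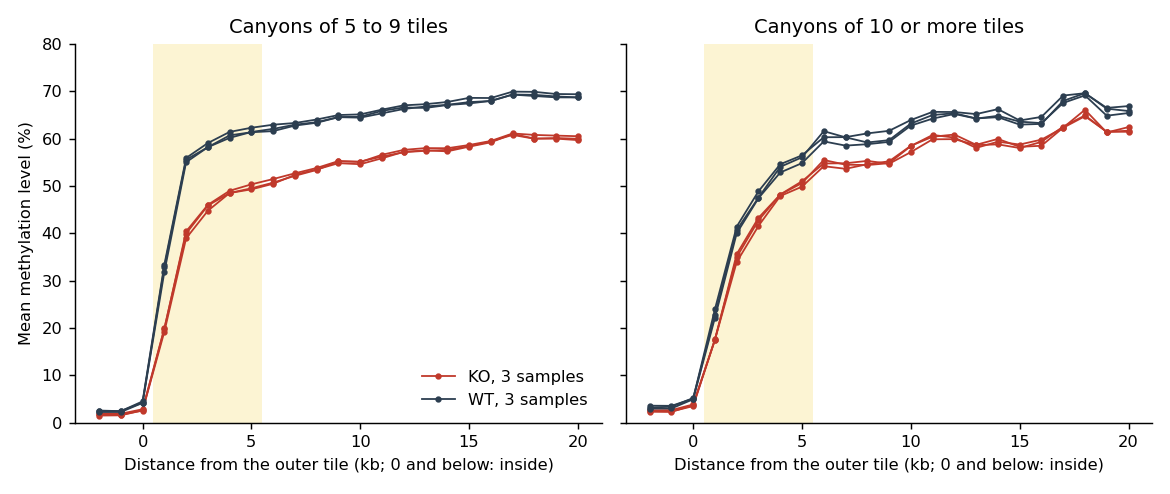
Mean methylation level (%) against distance from the outer tile of a canyon (kb, values of 0 and below are inside), one line per sample, for canyons of 5 to 9 tiles (left) and of 10 or more tiles (right); the shaded band marks the edge tiles. At 2 kb the KO and WT lines are -15.7 points apart on the left and -5.86 on the right.

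Narrow valleys, runs of 1 to 4 tiles under 10% in WT, gave 133429 flank tiles chosen in the same way. These were at 56.1% ± 0.381 in KO and 66.5% ± 0.421 in WT, apart by -10.4 points (KO minus WT), with 36.9% of tiles called lower. Both kinds of border differed by about the same at 1 kb (-12.03 at canyons, -12.1 at narrow valleys), whereas at 5 kb the difference was -11.1 beside canyons and -8.62 beside narrow valleys. Over all distances the loss at canyon edges was larger by 1.45, 1.72 and 2.17 points in the held-out samples (exact permutation p = 0.2 each time, n = 3 and 2). Ordered by the length of the unmethylated run, the difference went from -10.1 points at 1 tile to -10.3 at 2, -12.1 at 3 and -13.2 at 4 tiles, and was -13.2 for canyons of 5 tiles. Flanks of runs just too short to be canyons (4 tiles) thus differed by about as much as edges of the shortest canyons. Tiles at 8 to 10% in WT, just under the limit for an edge tile, differed by -3.44 points, and edge tiles at 10 to 12% by -3.56. At 6 kb, just outside the distance limit, the difference was -10.6 points.

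Borders of the unmethylated region were then compared. Outward from each of the 860 borders, adjacent tiles under 10% were counted in each sample, to at most 20 kb. In KO, 312, 328 and 318 borders lay at least 1 kb farther out, against 59, 52 and 74 in single WT samples, whose mean had set the border. At least 5 kb farther out were 67, 80 and 66 borders in KO and 5, 10 and 12 in WT. The mean shift was 1.18 kb ± 0.103 in KO and 0.167 kb ± 0.0555 in WT. The count ran on through tiles already under 10% in WT, such as those of a neighbouring canyon. Loss in 1 tile between canyons could thus move a border by several kb, here and in the shifts and lengths below. Since the WT mean set the borders, the WT shifts are held near 0 and these values are a description. In a comparison added after these values were seen, borders were set by 1 WT sample alone: the mean shift was then 1.29, 1.15 and 1.22 kb in KO and 0.4, 0.281 and 0.276 kb in the other WT samples, for WT replicates 1 to 3. KO and WT samples did not overlap for any choice (exact permutation p, the same after Benjamini-Hochberg adjustment over these 3 tests, = 0.2 each time, the smallest possible, n = 3 and 2). From borders set by the WT mean, the KO shift was 1.203 kb for canyons of 5 to 9 tiles and 1.05 kb for longer ones, a difference that was not tested. From the KO mean, and again against borders that WT set, 226 canyons were longer than in WT, 180 were equal and 24 were shorter. Several neighbouring canyons merged: in KO, 3 canyons at the end of the HoxB cluster became part of a single run of 96 tiles, those over Hoxa2 and Hoxa3 part of a run of 30 tiles, and those over Hoxd10 to Hoxd13 part of a run of 29 tiles. Hox genes encode homeobox factors of body axis identity.

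Edges were then taken as wholes, an edge being all edge tiles on 1 side of 1 canyon. Of 860 borders, 681 had 3 to 5 edge tiles, 147 had 1 or 2 and 32 had none. An edge was named eroded where 3 or more of its tiles were called lower and held where no tile was called in either direction (16.3% of all tiles were called), which does not show that its level was unchanged. By this rule 249 edges (36.6%) were eroded, 185 (27.2%) held and 247 mixed. The median difference was -20.4 points over eroded and -3.22 over held edges, which the rule itself sets. Beside canyons of 10 or more tiles, 8 of 82 edges were eroded and 41 held. Beside canyons of 5 to 9 tiles, 241 of 599 were eroded and 144 held. Without 1 sample at a time, 215 to 245 edges were eroded and 194 to 223 held. With levels centred sample by sample on the median, which removes a shift of -4.89 points from each difference, 133 were eroded and 314 held.

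**Figure D3:**
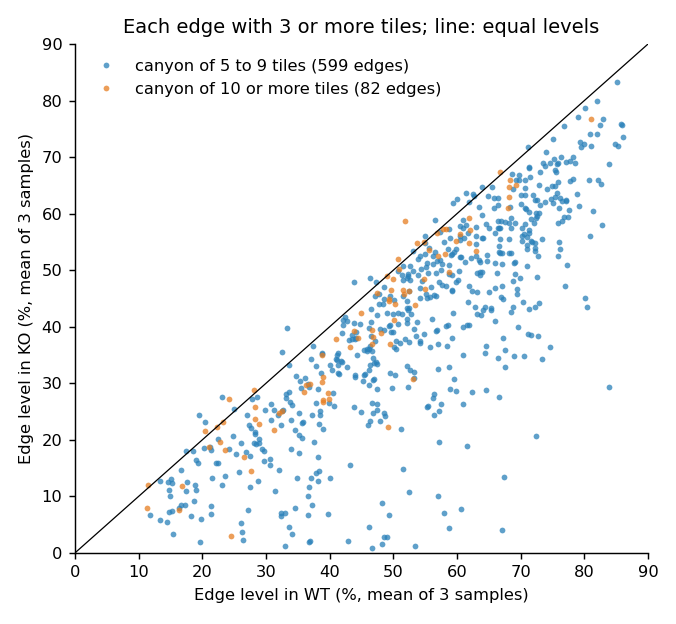
Level of each edge with 3 or more tiles in KO against its level in WT (%, means of 3 samples), blue for canyons of 5 to 9 tiles and orange for longer ones; the line marks equal levels. Most points lie under the line (494 of 681 edges had all KO samples below all WT samples), the orange points mostly close to it, and 47 edges lie under 10% in KO. Among single tiles, all KO samples were below all WT samples in 55.7% of edge tiles and 31.6% of all tiles. The share for means of several tiles away from edges was not counted.

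Eroded and held edges were also described by other features, among which the WT level bounds the loss that a tile can show. The WT level of the tile at 1 kb had a median of 33.1% (quartiles 17.8 and 55) at eroded and 21.4% (13.5 and 35.5) at held edges, a steeper rise out of the canyon at the eroded ones. Canyon interiors were at a median of 2.66% and 3.26% in WT. The tiles 6 to 20 kb outside differed by a median of -12.3 points (quartiles -17.4 and -7.95) beyond eroded edges and -4.15 (-6.41 and -2.49) beyond held ones, so the loss at eroded edges was not limited to the first 5 kb. Most of the edge lay in a gene that starts in the canyon at 75 of 237 eroded and 39 of 180 held edges, chromosome 18 left out. The most CpG-rich promoter in the canyon had a median of 18 CpGs in its 250 bases at eroded edges (164 with a promoter in the table) and 15.5 at held ones (110). Of 284 canyons with 3 or more edge tiles on both sides, 59 were eroded on both, 31 held on both, and 32 eroded on 1 side and held on the other.

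Edges of 5 tiles with the largest losses lay beside canyons over Meis1, Tle3, Foxc2, Tbx3, Zfp516, Hoxa3, Hlx, Zeb2 and Hoxa9, nearly all of them transcription factor genes. They were picked by their difference, so the values are a description. The left edge of the Meis1 canyon (chromosome 11, 19009001 to 19014000), over a homeobox cofactor of Hox proteins, was at 5.31, 2.03 and 4.51% in KO and 64.6, 63.6 and 72.8% in WT. The tile means of the 3 KO samples stayed between 0.599 and 5.83% over the 5 kb, with KO replicate 1 at 10.9% in the tile at 2 kb. The left edge at Tbx3 (chromosome 5, 119665001 to 119670000), a T-box repressor gene, was at 1.36, 0.3996 and 1.63% in KO and 48.1, 56.8 and 55.1% in WT. In the KO mean the Tbx3 canyon ran on for 14 kb on that side and grew from 6 to 22 tiles. The left edge at Hlx (chromosome 1, 184724001 to 184729000), a homeobox gene, was at 0.812, 0.867 and 0.651% in KO and 43.3, 47.3 and 49.3% in WT. Single tiles there rose in WT from 16.8% at 1 kb to 72.9% at 5 kb, while the means of the 3 KO samples stayed between 0.274 and 1.17%.

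On the right at Foxc2 (chromosome 8, 121119001 to 121124000), a forkhead factor of lymphatic and vascular development, the edge was at 7.78% ± 0.616 in KO and 60.6% ± 1.295 in WT. The left edge at Zeb2 (chromosome 2, 45103001 to 45108000), a zinc finger repressor that promotes epithelial-mesenchymal transition, was at 10.7% ± 1.36 and 52.5% ± 6.23. The right edge at Hoxa3 (chromosome 6, 52180001 to 52185000) was at 1.55% ± 1.16 and 48.3% ± 1.24, and the left edge at Hoxa9 (chromosome 6, 52220001 to 52225000) at 8.85% ± 1.46 and 48.2% ± 1.64. At Tle3 (chromosome 9, 61375001 to 61380000), a Groucho family corepressor gene, and at Zfp516 (chromosome 18, 82904001 to 82909000), a zinc finger gene, the edge was highly methylated in WT and kept part of it: 29.3% ± 5.36 in KO and 83.9% ± 2.08 in WT at Tle3, and 20.7% ± 2.35 and 72.4% ± 1.87 at Zfp516. Under the 10% limit the KO border lay 0 kb out at Tle3 and 1 kb out at Zfp516, in contrast to 7 kb at Meis1 and 6 kb at Hlx. All 5 tiles were called lower at each of these edges except Hoxa9, which had 4 of 5, and KO and WT samples did not overlap at any. These calls were the same in each fit that left out 1 WT sample.

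The 10 held edges with at least 50% in WT and the difference nearest 0 lay beside canyons over Bsx, Skor1, Six2, Prdm12, Pdx1, Dio3, Slc6a5, Sox14, Emx1 and Esrp1. They were picked by a difference near 0, so their values too are a description. The right edge at Six2 (chromosome 17, 85693001 to 85698000), a homeobox factor of nephron progenitors, was at 56.5, 55.6 and 57.6% in KO and 58.2, 57.6 and 54.8% in WT. Sox14, a gene of the nervous system, had a right edge (chromosome 9, 99880001 to 99885000) at 67.4, 69.1 and 65.8% and 66.5, 66.5 and 67.4%. The left edge at Prdm12 (chromosome 2, 31630001 to 31635000), a gene of sensory neurons, was at 51.4, 54.8 and 53.9% and 53.3, 52.7 and 53.2%. KO and WT samples overlapped at all 10 edges. At Prdm12 the rise was retained tile by tile, from 25.1% in WT and 23.4% in KO at 1 kb to 74.6 and 73.9% at 5 kb. The right edge at Skor1 (chromosome 9, 63152001 to 63157000), a neural corepressor gene with a canyon of 17 tiles, was at 55% ± 5.31 and 54.8% ± 0.547, and that at Bsx (chromosome 9, 40880001 to 40885000), a hypothalamic homeobox gene, at 54.9% ± 4.44 and 54.9% ± 4.01. Beside Pdx1 (chromosome 5, 147279001 to 147284000), a pancreatic homeobox gene, the right edge was at 57.3% ± 9.17 and 57.8% ± 5.35, a wide spread that would hide a difference of several points. The left edges at Emx1, a cortical homeobox gene, Dio3, an imprinted deiodinase gene, Slc6a5, a glycine transporter gene, and Esrp1, an epithelial splicing factor gene, were at 64.7, 56.7, 50.3 and 64.6% in KO and 63.9, 57.2, 50.9 and 65.5% in WT. The canyons of these 10 edges had 5 to 17 tiles, against 5 to 8 for the edges with the largest losses named above.

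**Figure D4:**
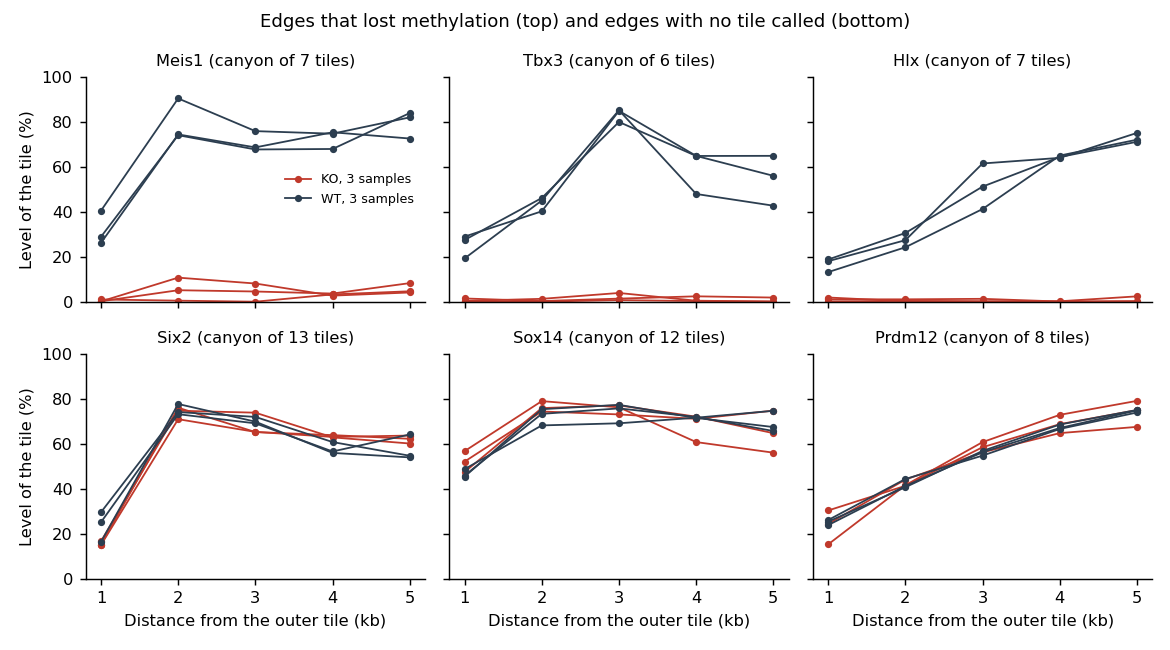
Level (%) of each edge tile against its distance from the outer tile of the canyon (kb), one line per sample (KO red, WT dark), for 3 edges with large losses (Meis1, Tbx3, Hlx) and 3 held edges (Six2, Sox14, Prdm12). In the top row no KO line goes above 10.9% (KO replicate 1 at Meis1, 2 kb), while WT lines rise to over 60% in at least 1 tile. In the bottom row KO and WT lines cross.

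The longest canyons, of 18 to 25 tiles, lay over Uncx, Pax6, Hoxc10, Six3, Pax7, Tfap2b and Foxf1, all genes of developmental transcription factors. They are described here with Pou3f3, the first in genome order of 6 canyons of 17 tiles (the others lay over Pou4f1, Lhx5, Skor1, Hmx2 and Onecut2). The canyon at Uncx had 25 tiles in WT and as many in the KO mean, with its left edge at 46.4% ± 2.64 in KO and 51.6% ± 2.76 in WT and its right edge at 30.1% ± 2.58 and 38.7% ± 3.97. At Pax6 the right edge was at 43.98% ± 3.38 and 50.3% ± 1.16 (2 of 5 tiles called lower), and at Pou3f3 the left edge was at 57.02% ± 5.21 and 62.1% ± 2.96 (1 of 5). At Pax7 the edges were at 24.8% ± 2.78 and 32.1% ± 3.08 on the left and 36.9% ± 4.13 and 46.7% ± 2.23 on the right, each with 1 tile called. Six3 had 1 of 5 tiles called on the left (54.7% ± 5.28 and 61.9% ± 4.09) and 4 of 5 on the right (26.7% ± 0.834 and 38.9% ± 1.99). The left edge at Foxf1 (chromosome 8, 121068001 to 121073000), a forkhead factor of lung mesenchyme and lung capillary endothelium, had all 5 tiles called lower. It was at 19.9, 21.9 and 24.9% in KO and 46.6, 50.9 and 50.1% in WT. The right edge was at 26.9% ± 1.17 and 38.9% ± 0.364 with 2 tiles called. Foxf1 on the left thus had the largest loss among the edges of these 8 canyons with 3 or more tiles. The calls at Uncx, Pou3f3 and on the left at Six3 were absent from at least 1 of the fits that left out 1 WT sample, and only 2 of the 4 calls on the right at Six3 and 4 of the 5 on the left at Foxf1 were made in all of these fits. Hoxc10 and Tfap2b had only 1 or 2 edge tiles on either side, and at Hoxc10 these were at 17.3% in KO and 15.3% in WT on the left and 20.9 and 15.2% on the right, with no tile called.

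Canyons that overlap genes of 5 lists were compared by their edges. Of 48 transcription factor genes of the endothelium, 15 overlapped a canyon, which gave 15 canyons and 30 edges with 3 or more tiles. Of these edges 21 were eroded, 7 were mixed and 2 held, with a median difference of -22.4 points, beside 249, 247 and 185 of all 681 edges with a median of -9.62. Of 83 patterning factors outside the Hox clusters, 58 overlapped 65 canyons with 83 such edges, of which 20 were eroded and 35 held, with a median of -7.75 points. Of these patterning canyons 21 had 10 or more tiles, against 2 of the endothelial ones. The median WT level of the edges was 42.9% for patterning factors, 53.3% for endothelial factors and 54.1% for all edges. Lists were not matched by WT level. Among canyons of 5 to 9 tiles alone, the medians were -23.3 points for endothelial factors (18 of 26 edges eroded), -8.39 for patterning factors (17 of 57) and -10.5 for all edges (241 of 599). The counts are descriptions with no test, and the lists were written with earlier results of these data known.

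Several canyons over endothelial factors were eroded on both sides. Nr2f1, which encodes COUP-TFI, had left edge tiles at 2.85% ± 1.47 in KO and 48.5% ± 3.95 in WT and right edge tiles at 13.4% ± 3.32 in KO and 67.4% ± 2.42 in WT (chromosome 13, canyon 78198001 to 78204000). Tal1, a haemato-endothelial bHLH factor, was at 18.8% ± 2.51 in KO and 61.5% ± 3.501 in WT on the left and 23.3% ± 5.58 in KO and 47.8% ± 5.11 in WT on the right (chromosome 4, 115056001 to 115061000). The Id genes encode inhibitors of bHLH factors and are targets of BMP signals. Id1 was at 34.4% ± 1.42 in KO and 66.5% ± 3.24 in WT on the left and 30.8% ± 1.07 in KO and 53.3% ± 0.858 in WT on the right, and Id3 at 25.2% ± 3.27 in KO and 57.2% ± 1.28 in WT and 44.99% ± 3.32 in KO and 80.02% ± 3.07 in WT. All 4 edges of Id1 and Id3 were eroded. Erg, an ETS factor that maintains endothelial identity, had a canyon of 11 tiles with eroded edges at 29.8% ± 4.22 in KO and 36.9% ± 0.722 in WT and 14.4% ± 3.21 in KO and 27.6% ± 2.602 in WT. Ets1 was eroded on the left (38.04% ± 0.742 in KO and 67.3% ± 2.39 in WT), while its right edge differed by -6.37 points with 2 of 5 tiles called. Elk3 and Bcl6b had the only held edges of this list, with 3 tiles each and WT levels of 16.7 and 14.8%, and their opposite edges were eroded, at -22.4 and -19.3 points.

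**Figure D5:**
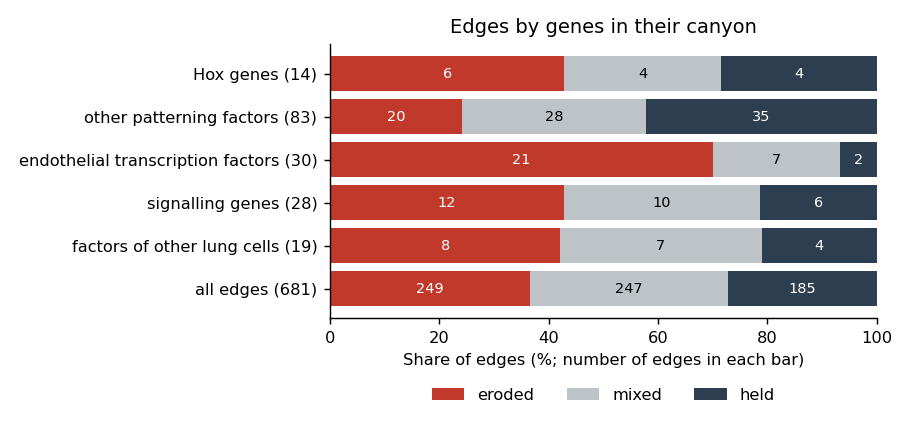
Share of edges (%) that were eroded (red), mixed (grey) or held (dark), for canyons that overlap genes of each list, with the number of edges in each bar. The bar of endothelial transcription factors has 21 of 30 edges eroded, that of other patterning factors 20 of 83, and that of all edges 249 of 681.

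Among signalling genes, 12 of 28 edges were eroded and 6 held, with a median difference of -11.3 points. Of all 681 edges 249 were eroded and 185 held, with a median of -9.62 points. Beside canyons of 5 to 9 tiles, 12 of 26 edges of signalling genes and 241 of 599 of all edges were eroded. The genes below are therefore examples and not a result about signalling genes as a set. The VEGF receptor genes Flt1 and Kdr were eroded on both sides, with differences of -25.9 and -26.5 points at Flt1 and -12.2 and -21.2 at Kdr. Spry2 and Dusp6, feedback inhibitors of ERK signalling, were also eroded on both sides, Spry2 at -34.3 and -14.1 points and Dusp6 at -14.8 and -23.9. The right edge at Wnt11, a Wnt ligand gene, was at 35.9% ± 4.73 in KO and 67.5% ± 3.12 in WT. Edges at the growth factor gene Fgf9 held on both sides (-4.43 and -3.097 points), as did the right edge of Gdf6, a BMP family gene (-0.741), and the left edge of the Wnt ligand gene Wnt10a (-0.591). Both edges of the morphogen gene Shh had 1 of 5 tiles called, at -4.54 and -7.29 points.

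Of factors of other lung cells, 8 of 19 edges were eroded and 4 held. Beside canyons of 5 to 9 tiles alone, 8 of 14 edges of this list were eroded and 1 held, with a median difference of -14.5 points. For all edges of that length class, 241 of 599 were eroded, with a median of -10.5 points. Lef1, a Wnt effector used here for lymphocytes, was eroded on both sides, at -33.01 and -23.7 points, and Gata6, a GATA factor of lung epithelium and other tissues, at -42.7 and -50.96. Nkx2-1, the homeobox factor of lung epithelium, held on both sides (23.1% ± 2.71 in KO and 23.2% ± 5.02 in WT on the left, 46.7% ± 1.87 in KO and 54.9% ± 4.44 in WT on the right), and the right edge of Foxa1, a forkhead factor of epithelium, was at 28.8% ± 1.14 in KO and 28.1% ± 4.93 in WT. The canyons at Nkx2-1 and Foxa1 had 13 and 10 tiles, and those at Lef1 and Gata6 had 7 and 5. Canyon length and gene list were thus not separated at these loci. Only 14 edges of the 20 canyons over Hox genes had 3 or more tiles, and 6 of them were eroded and 4 held. Those that eroded lay at Hoxa2, Hoxa3, Hoxa9, Hoxb8 and, on both sides, Hoxd3. Those that held lay at Evx2, Hoxa11, Hoxa13 and Hoxc12, at WT levels of 13.3, 18.8, 21.1 and 19.1%. The remaining patterning factors picked for a large loss were Gbx2 and Nkx2-2. On the left these edges were at 3% ± 0.394 (KO) and 24.4% ± 1.96 (WT) beside Nkx2-2, and at 8.44% ± 2.59 in KO and 37.2% ± 0.894 in WT beside Gbx2. In the list of endothelial factors, the left edge at Nfib, a nuclear factor I gene, was picked for a difference near 0. It differed by -6.37 points with 1 of 5 tiles called. The right edge at Nfib was not such a pick: it was eroded, with 3 of 3 tiles called lower. It was at 2.26% ± 2.796 in KO and 26.3% ± 2.56 in WT.

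Edge tiles within genes and between genes were both lower in KO. Chromosome 18 was left out here, since its promoters were not used, which left 3192 edge tiles. In the 812 tiles inside a gene that starts in the canyon, levels were 38.3% ± 0.647 in KO and 52.04% ± 0.299 in WT, and KO minus WT was -13.8 points. The difference was -13.1 points in 542 tiles in other protein-coding genes and -11.04 in 1838 tiles outside protein-coding genes. Beside canyons of 10 or more tiles it was -6.85, -5.58 and -5.27 points in these classes, so the smaller loss at long canyons was found inside and outside genes.

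Gene starts were rare in edge tiles. Of 20084 promoters of protein-coding genes, 316 started in a canyon and 19, of 17 genes, in an edge tile. The 250 bases before the start held a median of 16.5 CpGs in canyons, 6 in edge tiles and 10 over all promoters. At least 10 CpGs were found in 80.7% of canyon promoters, 21.1% of edge promoters and 51.3% of all. The edge promoters shown above had the following levels in their tile. Zbtb7b, a zinc finger factor gene, was at 20.6, 17.9 and 20.5% in KO and 79.9, 75.2 and 83.99% in WT, far apart in every sample. Cyp26b1, which encodes an enzyme that degrades retinoic acid, was at 53.02, 40.5 and 43.6% and 85.3, 80.2 and 82.2%. The Zeb2 start shown was at 2.403, 0.714 and 0.683% and 21.8, 27.02 and 24.2%, and Hes7, a bHLH repressor gene, at 0.388, 0.397 and 1.101% and 17.8, 13.8 and 11.9%, so both starts were nearly free of methylation in KO. Pax5, a B cell factor gene, was low in both groups, at 10.3, 2.97 and 5.596% and 11.3, 10.4 and 12.1%. Per1, a clock gene, was at 31.9, 31.3 and 32.4% and 32.2, 34.6 and 33.9%, and its groups overlapped; 151 of its 250 bases lie in the edge tile and the others in the neighbouring tile. Levels are means over 1 kb, so they are not those of the printed bases alone.

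Gains at edges were few. Of the 6 edge tiles called higher, the 5 with the smallest p lay beside the canyons over Hoxd13, Onecut3, Wnt10a and Mkx and 1 with no protein-coding gene within 10 kb. All were beside canyons of 5 or 6 tiles. The tile at Hoxd13 (chromosome 2, 74665001 to 74666000) was at 26.4, 26.2 and 31.8% in KO and 16.5, 6.66 and 10.3% in WT. The single edge tile on its other side was at 9.75% in KO and 49.1% in WT. The tile at Onecut3, a cut homeobox gene, was at 22.5, 20.8 and 21.2% and 7.82, 13.8 and 9.97%. At Wnt10a it was at 61.4, 55.97 and 46.6% and 42.1, 39.8 and 39.6%, and at Mkx, a homeobox gene of tendon, at 83.8, 78.7 and 77.3% and 67.1, 73.9 and 65.2%. The groups did not overlap in any of these tiles, which the pick by p favours.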

How the data were processed

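Libraries of endothelial cells sorted from lung (3 KO, 3 WT) were made by tagmentation and bisulfite conversion, as the labels' protocols describe. BWA 0.7.8 and mm10 are named in the submitters' processing notes. For each 1 kb tile and sample the deposited table gives, per the file headers, a methylation level as a fraction, with 0 missing values; the methylation caller, smoothing and coverage filter were not stated in the labels, and smoothing would blur borders.

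Fractions were turned into percent. Tiles were adjacent when their starts were 1 kb apart, and a tile near 2 canyons was given to the nearer. All tiles were fitted with limma 3.58.1 (R 4.3.3; variance trend on mean level, no covariate) with Benjamini-Hochberg adjustment over all tiles, and called at an adjusted p under 0.05 and 10 points. Means over samples were compared by two-sided exact permutation tests in samples that did not choose the edges (scipy 1.17.1, Python 3.11.15). Gene positions and promoters were from RefSeq. Loci carry the protein-coding gene with the most overlap with the canyon. Named were the 10 edges of 5 tiles with the largest losses, the 10 held edges nearest 0 with at least 50% in WT, edges of the 8 longest canyons, 2 edges per list at either extreme and up to 5 tiles called higher, besides others chosen after their values were seen; 1 of the edges with the largest losses is not reported here. Members, lists (5, with 287 genes) and rules were chosen with earlier results of these data known.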

Additional observations from a re-analysis of the deposited data

How the results depend on the processing

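The loss at edge tiles and the smaller loss beside long canyons kept their sign under every alternative run. Without 1 sample at a time, the difference over edge tiles ranged from -12.4 to -11.9, edge tiles called lower ranged from 1268 to 1339, edge tiles called higher ranged from 4 to 7, the difference at 1 kb minus that at 5 kb ranged from -1.57 to -0.548, the difference at long minus that at shorter canyons ranged from 6.94 to 7.68, the difference at canyon edges minus that at narrow flanks ranged from -1.95 to -1.71, eroded edges ranged from 215 to 245, held edges ranged from 194 to 223. Choice by WT replicate 1 alone, with KO against the other 2 WT samples, gave -11.6 for the difference over edge tiles, -0.341 for the difference at 1 kb minus that at 5 kb, 5.98 for the difference at long minus that at shorter canyons, -1.45 for the difference at canyon edges minus that at narrow flanks. Choice by WT replicate 2 gave 7.06 for the difference at long minus that at shorter canyons. Choice by WT replicate 3 gave 3 for edge tiles called higher, 6.52 for the difference at long minus that at shorter canyons, -2.17 for the difference at canyon edges minus that at narrow flanks. Centring on the median gave -7.31 for the difference over edge tiles, 819 for edge tiles called lower, 36 for edge tiles called higher, 133 for eroded edges, 314 for held edges. Scaling to the same mean level gave -8.53 for the difference over edge tiles, 24 for edge tiles called higher, -3.32 for the difference at 1 kb minus that at 5 kb, 7.12 for the difference at long minus that at shorter canyons, -3.11 for the difference at canyon edges minus that at narrow flanks, 148 for eroded edges, 284 for held edges. A limit of 5% for canyons gave -11.2 for the difference over edge tiles, 674 for edge tiles called lower, 2 for edge tiles called higher, 2.42 for the difference at 1 kb minus that at 5 kb, 7.204 for the difference at long minus that at shorter canyons, -1.21 for the difference at canyon edges minus that at narrow flanks, 123 for eroded edges, 119 for held edges. A limit of 15% gave -13.2 for the difference over edge tiles, -3.12 for the difference at 1 kb minus that at 5 kb, 4.55 for the difference at long minus that at shorter canyons, -2.53 for the difference at canyon edges minus that at narrow flanks, 377 for eroded edges. Choice by the mean of all 6 samples gave -13.4 for the difference over edge tiles, -3.41 for the difference at 1 kb minus that at 5 kb, 5.81 for the difference at long minus that at shorter canyons, -2.76 for the difference at canyon edges minus that at narrow flanks. A minimum of 20 points for a call gave 616 for edge tiles called lower, 0 for edge tiles called higher, 87 for eroded edges, 401 for held edges. The sign at 1 against 5 kb turned with the 5% limit, and the cause was not tested. The 5% limit left 1792 edge tiles (37.6% called lower) and 375 edges with 3 or more tiles, the 15% limit 4484 (45.6%) and 931, beside 3319 (41.9%) and 681 at 10%. Centred, 24.7% of edge tiles were called lower and 1.08% higher (6.64 and 0.931% of all tiles), and scaled 28.4 and 0.723% (6.58 and 1.57%). With the 20-point minimum 4.5% of all tiles were called lower; at an unadjusted p under 0.05 32 edge tiles were higher (limma). Of edge tile calls, 99.6% were losses as deposited, 95.8% centred and 97.5% scaled. Same-numbered KO and WT samples deviated together at r = -0.01898 to 0.0286 over edge tiles. KO replicates 1 and 3 correlated most with the WT sample of their own number (0.0151 and 0.0286), and KO replicate 2 with WT replicate 1 (0.0228). All these values were near 0, so they cannot tell whether the numbers pair samples. With the replicate number as a block, 1404 edge tiles were called lower and 6 higher, with 251 eroded and 180 held edges, and the block left the differences of mean levels at -12.2, -0.896, 7.62 and -1.82 points. A coverage limit could not be tried because the table gives no coverage, so shallow tiles cannot be told from deep ones.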

Other observations

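Of canyons with 3 or more edge tiles on both sides, 32 had 1 eroded and 1 held edge. At Prdm16, a zinc finger gene, 5 tiles on the left were at 25.2% ± 2.25 in KO and 47.4% ± 2.92 in WT, and those on the right at 44.1% ± 1.28 and 48.3% ± 3.86. At Ephb4, an ephrin receptor gene of venous endothelium, the left edge differed by -19.2 points and the right by -3.73, with 3 and 0 of 5 tiles called. At Col4a1, a basement membrane collagen gene, it was the reverse, with -6.799 on the left and -21.1 on the right. These were picked after their values were seen, and the difference between sides was not tested.

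Of the 24 canyons that were shorter in the KO mean, several lay over patterning genes: Shh went from 10 to 6 tiles, Dlx5 from 14 to 8, Pax1 from 11 to 7, Lbx1 from 15 to 10 and Onecut2 from 17 to 10. Lengths were counted as the run under 10% that covers the middle tile, so 1 tile just over the limit can shorten a canyon. The mean level over the WT canyon was lower in KO at Dlx5 (3.44% in WT and 2.45% in KO), Lbx1 (3.25 and 2.32%) and Onecut2 (3.56 and 3.1%). It was higher in KO at Shh (3.02% in WT and 3.51% in KO) and Pax1 (3.66 and 4.31%).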
